A study of Mus musculus with 6 samples.

Results

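The collagen genes were all genes on the array whose name takes the form of a collagen chain, such as *Col1a1*, the alpha 1 chain of type I collagen. There were 44 of them among 37074 gene names, measured by 91 of 56605 probes for transcripts, and they were grouped into 11 fibrillar collagens, 6 basement membrane collagens, 6 type VI chains, 9 FACIT collagens, which lie on the surface of fibrils, and 12 others. RNA came from cultures of 3 Ano1fl/fl mice, in which loxP sites flank *Ano1*, and of 3 Ctsk-Cre;Ano1fl/fl littermates, which carry the same floxed alleles and express Cre from the gene of cathepsin K, a protease made by osteoclasts. Both groups were treated alike: bone marrow cells received RANKL, the cytokine that drives osteoclast formation, over 5 days. The study's general protocol took marrow from mice aged 6 to 8 weeks, kept it in 10 ng/ml M-CSF for 1 day, and carried the cells left in suspension into RANKL at 50 ng/ml and M-CSF at 30 ng/ml. Each mouse gave 1 array, and the 6 arrays lay on 1 slide read on 1 scan day, with a single dye and 33480 to 34951 of 59305 spots well above background.

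*Ano1* did not check the genotype labels. Its only probe stayed at background throughout, with a log2 signal of 1.78, 1.76 and 1.78 in the Ano1fl/fl group and 1.70, 1.73 and 2.04 in the Ctsk-Cre;Ano1fl/fl group. Every direction below therefore rests on the labels. All 10 osteoclast markers had a higher signal in the group labelled Ctsk-Cre;Ano1fl/fl with the groups apart, as they were for 64% of all 20645 genes tested in either direction, and 8 were higher by more than 2-fold at an adjusted p under 0.05, as 9.88% of all genes tested were. The largest rises on the log2 scale were 8.89 for *Calcr*, above background on 2 of 3 Ano1fl/fl arrays, 6.48 for *Oscar*, 4.36 for *Mmp9*, 3.17 for *Ctsk* and 3.13 for *Atp6v0d2*, while *Acp5* and *Nfatc1* were 1.79-fold and 1.44-fold higher (limma adjusted p = 2.27e-04 and 0.00348). This direction is opposite to the one that the study gives for such markers in cells of these genotypes.

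Collagens are extracellular proteins in which 3 chains wind into a triple helix, which needs a glycine in every 3 residues. Fibrillar collagens, above all type I, bear the load of bone, tendon and skin, type IV forms the sheet of basement membranes, and type VI forms beaded filaments around cells. Type I collagen is the main protein of bone matrix, is made by osteoblasts and other mesenchymal cells, and is what osteoclasts degrade. The repeat can be read in the probes themselves: 9 of 56605 probes carry a glycine codon in every 3 codons of an open frame, and 4 of those belong to collagens (*Col5a3*, *Col6a3*, *Col11a2* and *Col15a1*). The 3 shown here belong to genes with a tested result, are written 5′ to 3′ as in the array files, and have the glycine codons in capitals.
Col6a3 probe, mm9 chr1:92689602-92690594, minus strand: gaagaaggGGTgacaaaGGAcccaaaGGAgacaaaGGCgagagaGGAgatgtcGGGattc
Col5a3 probe, mm9 chr9:20590066-20590795, minus strand: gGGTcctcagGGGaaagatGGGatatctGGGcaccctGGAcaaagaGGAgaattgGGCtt
Col11a2 probe, mm9 chr17:34189287-34189453, plus strand: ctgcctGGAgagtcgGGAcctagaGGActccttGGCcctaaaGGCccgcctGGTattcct
Each of these 60-base probes spans more than 60 bases of genome, up to 993 for *Col6a3*, so it crosses at least 1 intron. Of them, the *Col6a3* probe was well above background on all 3 Ctsk-Cre;Ano1fl/fl arrays and on no Ano1fl/fl array, and gave at least a 2.54-fold higher signal on the former. The *Col5a3* probe did not rise above background on any array. The *Col11a2* probe, at 4.53 ± 0.21 against 4.20 ± 0.43 on the log2 scale (SD, n = 3), did not pass the test (limma adjusted p = 0.265 in the fit over all probes).

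Most collagens that could be measured were higher on the Ctsk-Cre;Ano1fl/fl arrays. Of the 44, 29 were tested, having a probe well above background on every array of 1 group or both, and 19 of those 29 (65.5%) were higher by more than 2-fold at a limma adjusted p under 0.05, against 9.88% of the 20645 genes tested. Just 1, *Col4a5*, was lower (3.45%, against 7.19% of all genes tested), and the other 9 did not pass both limits. The groups did not overlap for 24 of the 29 (82.8%), against 64% of all genes tested. A fitted rise of more than 16-fold, which 1.42% of all genes tested showed, was found for 12 collagens, of which *Col2a1* and *Col27a1* were below background in the Ano1fl/fl group and have lower limits under 16-fold. The median log2 difference over the 29 was 3.53, or 2.18 with every gene that was below background in 1 group set to its lower limit, against -0.06 over all genes tested. Since 6 of the 29 entered the test only because they were bright on the Ctsk-Cre;Ano1fl/fl arrays (*Col2a1*, *Col5a2*, *Col6a4*, *Col12a1*, *Col23a1* and *Col27a1*), they had to be higher there, and the counts and the median describe the measured genes and not all 44. The median differed with the processing and was 1.07 with normexp background correction, 1.73 with the uncorrected spot medians of the series matrix, 1.78 when a gene's probes were averaged, and 0.63 over all 44 genes with no filter. In RNA from a whole culture, more cells that make a collagen and more collagen RNA per cell cannot be told apart.

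**Figure D1:**
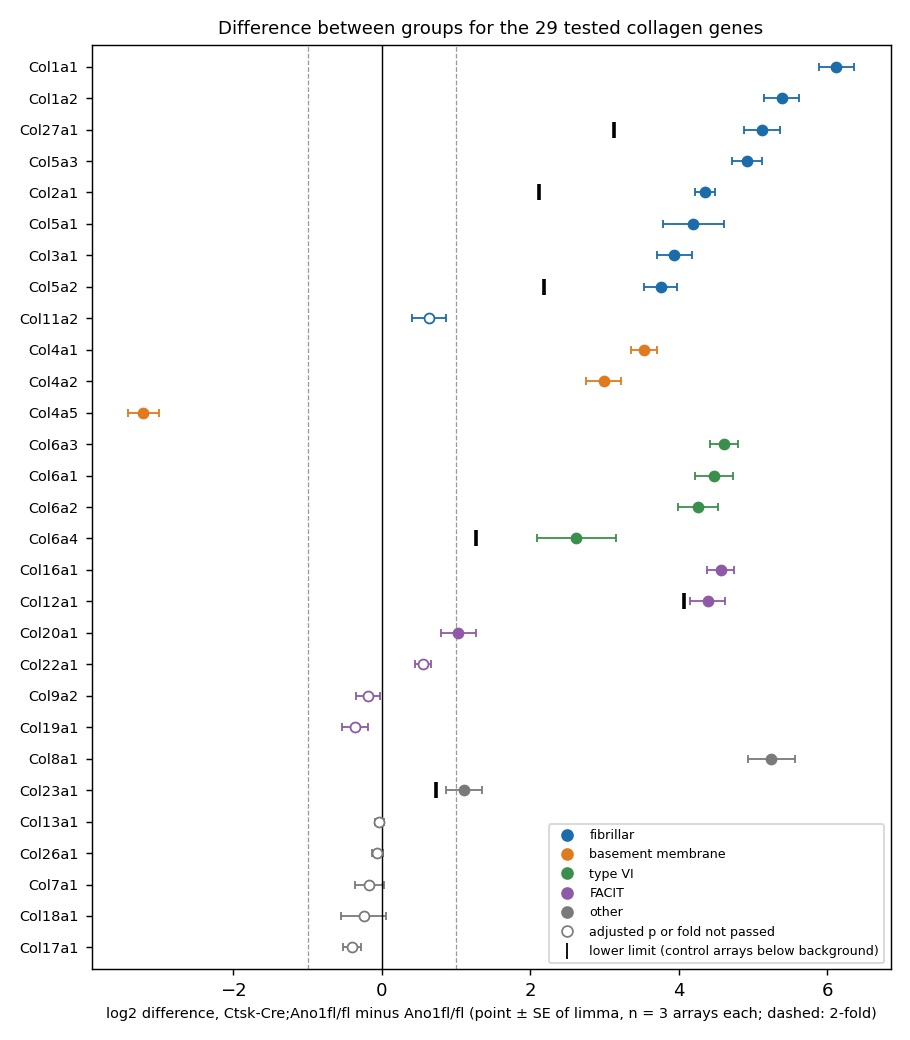
Log2 difference in signal between the Ctsk-Cre;Ano1fl/fl and Ano1fl/fl arrays for the 29 tested collagen genes, ordered by class, with the SE of the limma fit (3 arrays per group). Filled points passed both limits, black ticks mark the lower limit of the 6 genes whose Ano1fl/fl arrays were all below background, and *Col4a5* is the only filled point left of 0.

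Among the fibrillar collagens, 8 of 9 tested genes rose, against 9.88% of all genes tested, and the ninth, *Col11a2*, did not pass. Of the 8, *Col2a1*, *Col5a2* and *Col27a1* were tested only because they were bright in the group where they rose. *Col1a1* and *Col1a2* encode the chains that make up type I collagen, 2 of alpha 1 to 1 of alpha 2. The log2 signal of *Col1a1* (probe at mm9 chr11:94813075-94813134) was 7.26, 7.08 and 6.78 on the Ano1fl/fl arrays against 13.65, 13.02 and 12.82 on the Ctsk-Cre;Ano1fl/fl arrays, replicates 1 to 3 in that order here and below. *Col1a2* (mm9 chr6:4490619-4490678) gave 8.99, 8.81 and 8.42 against 14.58, 13.96 and 13.84. The lowest Ctsk-Cre;Ano1fl/fl array stood far above the highest Ano1fl/fl array for both, and within each group replicate 1 was the highest and replicate 3 the lowest. *Col1a1* was 69.6-fold higher (log2 difference 6.12, SE 0.24, limma adjusted p = 1.92e-05) and *Col1a2* 41.8-fold higher (5.39, SE 0.24, adjusted p = 2.52e-05). With the mean of their 4 probes in place of the brightest, the differences were 4.22 and 3.17. Of all genes tested, 46 rose by more than *Col1a1* and 84 by more than *Col1a2*.

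*Col3a1*, which forms type III collagen and shares fibrils with type I in soft tissue, read 7.40, 7.20 and 6.59 on the Ano1fl/fl arrays against 11.30, 10.82 and 10.88 on the Ctsk-Cre;Ano1fl/fl arrays, a 15.3-fold rise (log2 3.94, SE 0.24, limma adjusted p = 7.74e-05). The chains of type V collagen, which sits in the core of type I fibrils and sets their width, rose too. *Col5a1* was 5.91, 5.24 and 4.96 against 10.40, 9.21 and 9.08, which is 18.3-fold (SE 0.41 on the log2 scale, adjusted p = 4.56e-04), and its replicate 1 lay apart from the other 2 of its group on the Ctsk-Cre;Ano1fl/fl side. *Col5a3* was 4.81, 4.89 and 4.62 against 9.94, 9.89 and 9.24, which is 30.3-fold (SE 0.20, adjusted p = 2.19e-05). In all 3 genes the groups were well apart. With the mean of all its probes, dim ones included, the log2 difference was 1.68 for *Col3a1* and 3.01 for *Col5a3*.

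The other fibrillar collagens that rose were not well above background on any Ano1fl/fl array, so that their folds are lower limits, taken against the dimmest signal that each of those arrays still set clearly apart from background. *Col5a2*, the usual partner of *Col5a1* in type V collagen, read 2.70, 2.39 and 2.08 on the Ano1fl/fl arrays and 6.50, 6.12 and 5.82 on the others, at least 4.52-fold higher (limma adjusted p = 7.22e-05). *Col2a1*, the collagen of cartilage, read 1.70, 1.74 and 1.73 and 6.38, 5.97 and 5.89, at least 4.32-fold higher (adjusted p = 1.18e-05). *Col27a1*, also known from cartilage, read 1.73, 2.49 and 1.70 and 7.01, 7.36 and 6.90, at least 8.7-fold higher (adjusted p = 3.34e-05). All 3 were well above background on each Ctsk-Cre;Ano1fl/fl array. With normexp, the fitted log2 differences were 1.01, 1.07 and 1.59 in that order, lower than these limits. None of the 3 chondrocyte markers that could be tested (*Sox9*, *Comp* and *Chad*) changed by more than 2-fold, and *Acan*, *Matn1*, *Matn3*, *Hapln1* and *Ucma* did not rise above background on any array. *Col11a2*, at 4.44, 3.94 and 4.33 against 5.34, 4.56 and 4.72, was higher on every Ctsk-Cre;Ano1fl/fl array but missed the threshold (log2 0.63, SE 0.23, adjusted p = 0.0628), and its other probe, shown above, pointed the opposite way. It passed with a replicate block (adjusted p = 0.0207), with the series matrix (0.0496) and without Ctsk-Cre;Ano1fl/fl replicate 2 (0.0464), and its sign turned with normexp (-0.081). *Col11a1* was above background on 1 Ctsk-Cre;Ano1fl/fl array and *Col24a1* on none, and neither was tested.

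**Figure D2:**
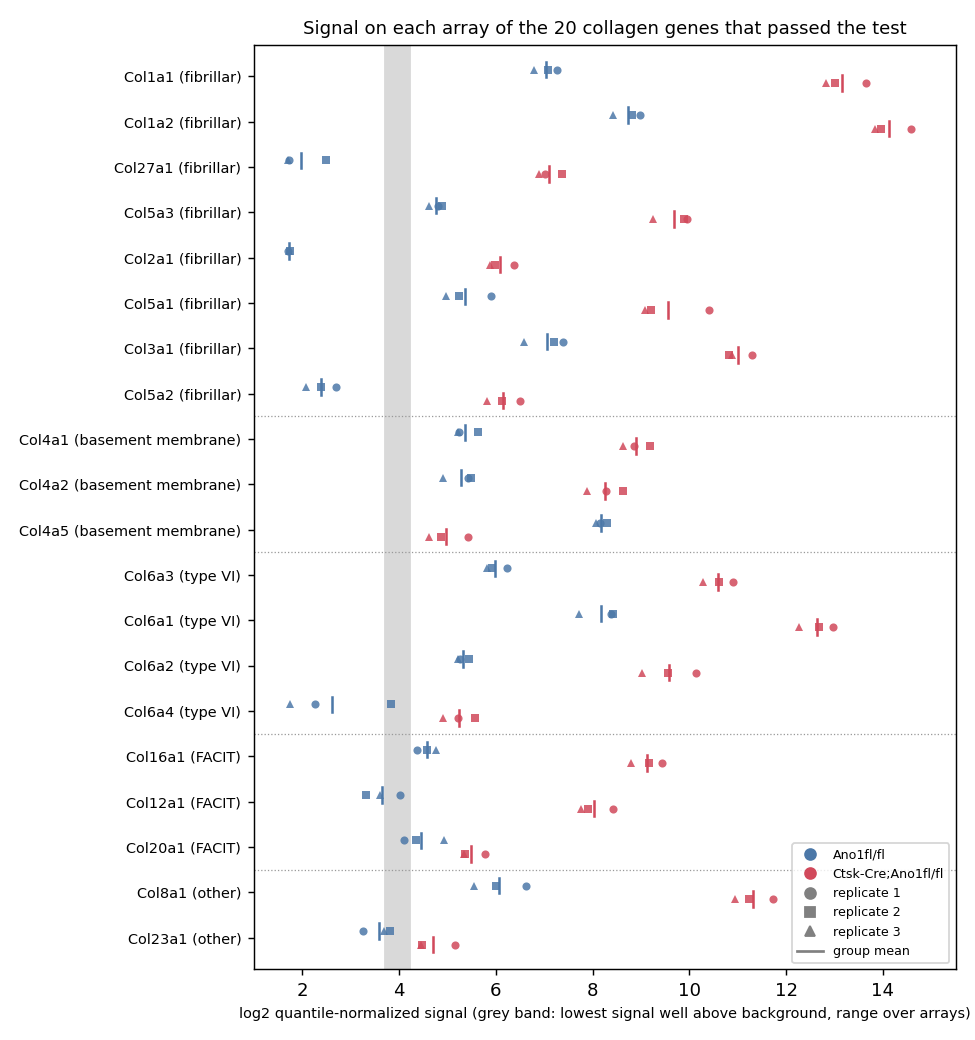
Log2 signal on each of the 6 arrays for the 20 collagen genes that passed the test, by class, with the group mean as a bar and the replicate as the symbol. The grey band is the lowest signal well above background, 3.70 to 4.22 over the arrays. Blue and red points do not overlap in any row, and *Col4a5* is the row in which blue lies to the right. Rows are different probes, so their levels are not comparable with each other.

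Type IV collagen is built from 6 chains whose genes lie in 3 pairs. *Col4a1* and *Col4a2* make the network found in nearly all basement membranes, and *Col4a3* to *Col4a6* make networks restricted to some tissues. *Col4a1* read 5.25, 5.62 and 5.22 on the Ano1fl/fl arrays against 8.86, 9.19 and 8.63 on the Ctsk-Cre;Ano1fl/fl arrays, 11.5-fold higher (log2 3.53, SE 0.18, limma adjusted p = 4.20e-05). *Col4a2* read 5.41, 5.49 and 4.91 and 8.27, 8.63 and 7.88, 7.94-fold higher (log2 2.99, SE 0.24, adjusted p = 1.98e-04). For both, replicate 2 was the highest and replicate 3 the lowest of the Ctsk-Cre;Ano1fl/fl arrays, and no array overlapped the other group. With normexp the differences were 2.37 and 1.86.

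*Col4a5* moved in the opposite direction. Its brighter probe (mm9 chrX:138123547-138123606) read 8.16, 8.29 and 8.07 on the Ano1fl/fl arrays against 5.43, 4.86 and 4.61 on the Ctsk-Cre;Ano1fl/fl arrays. The Ano1fl/fl arrays lay close together, and every Ctsk-Cre;Ano1fl/fl array was below all of them though still above background. It was 9.26-fold lower (the log2 signal fell by 3.21, SE 0.21, limma adjusted p = 1.01e-04), and 35 of all genes tested fell by more. With normexp the difference was -1.90. A second *Col4a5* probe read 4.92, 4.65 and 5.04 and 1.80, 1.95 and 1.93. It was well above background on all Ano1fl/fl arrays and on none of the others, at least 1.82-fold lower (adjusted p = 1.72e-05 in the fit over probes). *Col4a6*, the neighbour of *Col4a5* on the X chromosome, read 3.999, 4.03 and 3.55 and 1.71, 1.71 and 1.70. It was well above background on only 1 array, an Ano1fl/fl one, so it was not tested and has no fold. *Col4a3* and *Col4a4* did not rise above background on any array.

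**Figure D3:**
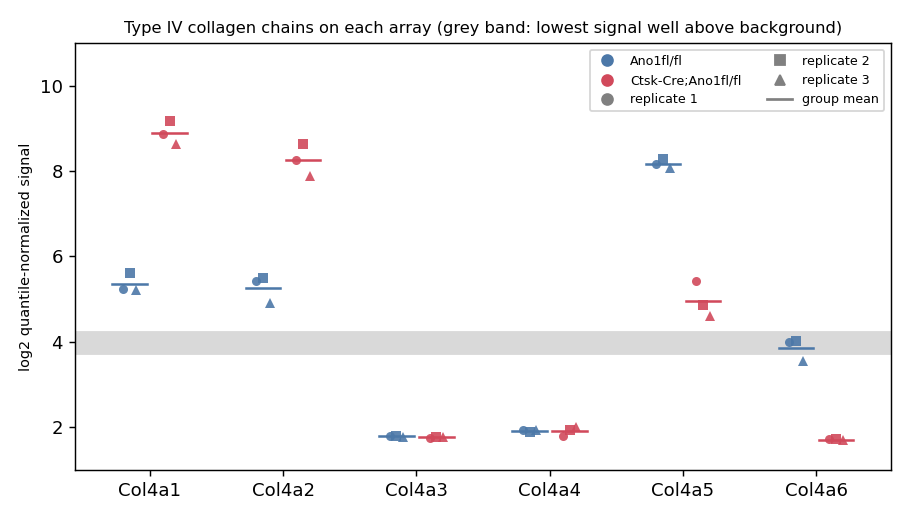
Log2 signal of the 6 type IV collagen chains on each array, with group means as bars and the range of the lowest signal well above background as a grey band. *Col4a1* and *Col4a2* are higher and *Col4a5* is lower on the Ctsk-Cre;Ano1fl/fl arrays, *Col4a6* lies in the band on 2 of the Ano1fl/fl arrays and under it on the other 4 arrays, and *Col4a3* and *Col4a4* stay under it.

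Type VI collagen is a heterotrimer of alpha 1, alpha 2 and 1 more chain, alpha 3 in most tissues. *Col6a1* read 8.38, 8.42 and 7.71 on the Ano1fl/fl arrays against 12.97, 12.68 and 12.27 on the Ctsk-Cre;Ano1fl/fl arrays. *Col6a2* read 5.27, 5.45 and 5.22 and 10.13, 9.56 and 9.02, and *Col6a3* read 6.23, 5.91 and 5.82 and 10.89, 10.61 and 10.28. In each chain the groups were apart and replicate 3 was the lowest of the Ctsk-Cre;Ano1fl/fl arrays. The rises were 22.1-fold for *Col6a1* (SE 0.25 on the log2 scale, limma adjusted p = 6.40e-05), 19.2-fold for *Col6a2* (SE 0.27, adjusted p = 9.17e-05) and 24.4-fold for *Col6a3* (SE 0.18, adjusted p = 2.05e-05). With the mean of its probes *Col6a3* gave 2.71 on the log2 scale. *Col6a4*, below background on the Ano1fl/fl arrays at 2.26, 3.83 and 1.75, read 5.22, 5.58 and 4.90 on the others, at least 2.4-fold higher (adjusted p = 0.00756). Over the alternatives its fitted log2 difference went down to 0.47, which is under this limit and under 2-fold. With 1 array left out it was 2.19 to 3.23. *Col6a5* and *Col6a6* did not rise above background on any array.

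Of the 6 FACIT collagens tested, 3 rose (9.88% of all genes tested did), 1 of them, *Col12a1*, tested only through the group where it was high. *Col16a1*, found in skin and cartilage matrix, read 4.36, 4.58 and 4.76 on the Ano1fl/fl arrays against 9.43, 9.16 and 8.79 on the Ctsk-Cre;Ano1fl/fl arrays, 23.6-fold higher (log2 4.56, SE 0.19, limma adjusted p = 2.12e-05). With the mean of its probes the difference was 1.98, and with normexp 2.85. *Col12a1*, which binds type I fibrils, read 4.02, 3.31 and 3.61 and 8.43, 7.91 and 7.77, at least 16.8-fold higher (adjusted p = 5.48e-05). Its fitted log2 difference was 2.14 with normexp, 2.68 with the series matrix and 1.78 with the mean of its probes, all lower than this limit. The lower limit of its other tested probe was 2.08-fold. *Col20a1* was only just past 2-fold, at 4.10, 4.34 and 4.94 and 5.77, 5.36 and 5.33, with 2 of the 3 Ano1fl/fl arrays above background (log2 1.03, SE 0.24, adjusted p = 0.0126). It fell short of 2-fold with normexp (0.33), with the series matrix (0.44) and without replicate 1 (0.85) or 2 (0.97) of Ano1fl/fl or replicate 1 of Ctsk-Cre;Ano1fl/fl (0.89). *Col22a1* passed the test at under 2-fold (4.05 ± 0.13 against 4.60 ± 0.15, SD, n = 3, adjusted p = 0.0066). With the mean of its probes its sign turned (-0.31), and with the series matrix it no longer passed (adjusted p = 0.0559). *Col9a2* and *Col19a1* differed by -0.19 and -0.36 and did not pass (adjusted p = 0.377 and 0.134). *Col14a1* was well above background on 2 arrays of each group and *Col9a3* on 1 of each, *Col9a1* was on none, and none of these 3 was tested.

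The remaining class holds collagens of varied build. *Col8a1*, a short network-forming chain of vessel walls and of the membrane behind the cornea (mm9 chr16:57627033-57627092), read 6.62, 6.01 and 5.55 on the Ano1fl/fl arrays against 11.73, 11.24 and 10.95 on the Ctsk-Cre;Ano1fl/fl arrays. Its groups were far apart, and it was 37.9-fold higher (log2 5.24, SE 0.32, limma adjusted p = 7.67e-05). *Col23a1*, a transmembrane collagen, was below background on the Ano1fl/fl arrays at 3.25, 3.81 and 3.70 and read 5.16, 4.47 and 4.45 on the others. Its fold was at least 1.65 (adjusted p = 0.00971), and this limit is under 2-fold. The 5 others that were tested did not change by 2-fold. Among them *Col18a1*, a basement membrane proteoglycan whose end is released as endostatin, had a mean log2 signal of 11.84 ± 0.34 against 11.59 ± 0.54 (SD, n = 3, adjusted p = 0.525), and *Col7a1*, which forms the anchoring fibrils of skin, had 7.25 ± 0.36 against 7.08 ± 0.15 (adjusted p = 0.487). *Col17a1*, a transmembrane collagen of epithelia, was lower at under 2-fold (5.54 ± 0.22 against 5.13 ± 0.06, adjusted p = 0.0334), a call lost in 10 of 15 alternatives, and *Col13a1* and *Col26a1* differed by -0.03 and -0.06 on the log2 scale (adjusted p = 0.676 and 0.513). *Col8a2*, *Col10a1*, the collagen of hypertrophic cartilage, *Col15a1*, *Col25a1* and *Col28a1* did not rise above background on any array.

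Chains of 1 collagen type can be set against each other within an array, which cancels whatever the array shares. This was done for 6 chosen pairs with both chains tested, among more that could be formed, with a two-sided exact permutation test over the 6 arrays, for which 0.1 is the smallest p that 3 against 3 arrays can give. *Col1a1* gained 0.74 on the log2 scale over *Col1a2* (SE 0.04, exact p = 0.1, adjusted p = 0.2 over the 6 pairs), and the groups were apart. *Col4a1* gained 0.54 over *Col4a2* (SE 0.15, exact p = 0.1, adjusted p = 0.2) and 6.74 over *Col4a5* (SE 0.27, exact p = 0.1, adjusted p = 0.2), again with groups apart. For *Col6a1* the difference was 0.21 against *Col6a2* (SE 0.22, exact p = 0.4, adjusted p = 0.48) and -0.14 against *Col6a3* (SE 0.18, exact p = 0.7), with overlapping groups in both pairs. The difference from *Col6a2* was 1.17 with normexp background correction and 0.83 with the series matrix (exact p = 0.1 in both), and that from *Col6a3* had the opposite sign under 3 other ways of processing. The sixth pair, *Col5a1* against *Col5a2*, has no measured difference, because *Col5a2* was below background on every Ano1fl/fl array. The fitted value was 0.44 (SE 0.28, exact p = 0.2, adjusted p = 0.3), and the lower limit of the *Col5a2* rise allows up to 2.02.

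**Figure D4:**
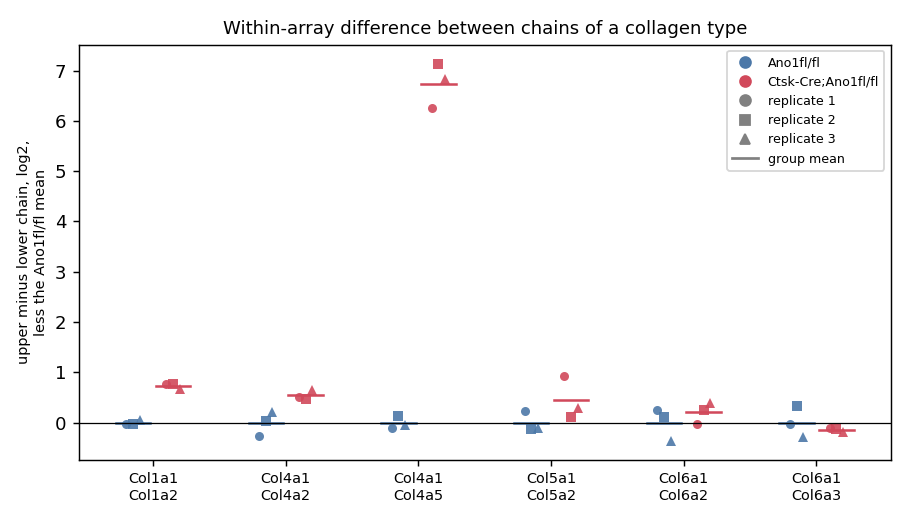
Difference in log2 signal between 2 chains of a collagen type on each array, less the Ano1fl/fl mean of that pair, with group means as bars. The groups are apart in the first 3 pairs, by 0.74, 0.54 and 6.74, and overlap in the other 3, of which *Col5a1* less *Col5a2* rests on *Col5a2* signals below background on the Ano1fl/fl arrays.

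Other probes of the same genes added few independent measurements. Of the 91 collagen probes 40 were tested, and 43 did not rise above background on any array. Of the 40, 28 were higher (8.91% of all 31848 probes tested were), 13 of which had to be, since they were below background on every Ano1fl/fl array. Both probes that were lower belong to *Col4a5* (8.11% of all probes tested were lower), and 1 of them entered the test through the Ano1fl/fl group alone. Only *Col1a1* and *Col11a2* had over 1 tested probe above background in both groups. The log2 differences of the 3 tested *Col1a1* probes were 6.12, 6.05 and 5.48, and the *Col11a2* probes differed in sign. *Col1a2* had 2 further tested probes, below background on the Ano1fl/fl arrays, with lower limits of 3.18-fold and 2.15-fold.

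Ctsk-Cre;Ano1fl/fl replicate 3 was the lowest of its group for 18 of the 19 collagens that rose, and replicate 1 the highest for 15. Over all 2039 genes that rose, these shares were 42.3% and 30.9%. On the Ano1fl/fl side, replicate 3 was the lowest for 14 of the 19, against 33.8% of all genes that rose, while the highest array was replicate 1 for 8, replicate 2 for 9 and replicate 3 for 2. That side includes the 6 genes that were below background on all its arrays. With each array left out in turn, 17 to 19 collagens rose, and the lowest count was reached without replicate 1 of either group.

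Several collagen genes lie side by side. In the RefSeq gene table of GRCm38.p6, in which all 44 names were found, 8 pairs of neighbouring genes are both collagens. Both members rose in 3 of them (*Col3a1* with *Col5a2*, *Col6a1* with *Col6a2*, and *Col4a1* with *Col4a2*), and the *Col4a5* with *Col4a6* pair holds the gene that fell. Every pair but those 3 holds a gene that was not tested, so no other pair could have both members called. *Col5a2* had to be higher, being tested through the Ctsk-Cre;Ano1fl/fl group alone. The share among neighbouring genes in general was not taken. *Col4a1* and *Col4a2* start 21 bases apart on opposite strands. *Col4a5* and *Col4a6* start 1343 bases apart and are read away from each other. Promoter windows of GRCm38.p6 from RefSeq were matched for 35 of the 44 collagen genes, 15 of the 19 that rose among them. The 250 bases before the start are printed for *Col1a2* and *Col8a1*, the genes with the largest rises among those with a window, and for *Col4a5* and *Col4a6*, the pair that differs, each 5′ to 3′ on the strand of the gene. Capitals mark the CCAAT box (CCAAT), the GC box (GGGCGG), the TATA box (TATAAA) and the AP-1 site (TGANTCA) on either strand.
Col1a2, chr6:4505368-4505617, plus strand: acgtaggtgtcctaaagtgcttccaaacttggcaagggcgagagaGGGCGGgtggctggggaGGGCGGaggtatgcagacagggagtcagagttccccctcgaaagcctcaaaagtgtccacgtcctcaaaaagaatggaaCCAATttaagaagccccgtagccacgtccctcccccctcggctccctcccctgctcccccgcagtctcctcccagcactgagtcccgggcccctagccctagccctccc
Col8a1, chr16:57754738-57754987, minus strand: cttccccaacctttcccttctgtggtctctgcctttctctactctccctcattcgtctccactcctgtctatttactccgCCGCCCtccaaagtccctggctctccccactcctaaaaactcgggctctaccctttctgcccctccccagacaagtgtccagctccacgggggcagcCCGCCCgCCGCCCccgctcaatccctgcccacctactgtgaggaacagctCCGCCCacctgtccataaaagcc
Col4a5, chrX:141475169-141475418, plus strand: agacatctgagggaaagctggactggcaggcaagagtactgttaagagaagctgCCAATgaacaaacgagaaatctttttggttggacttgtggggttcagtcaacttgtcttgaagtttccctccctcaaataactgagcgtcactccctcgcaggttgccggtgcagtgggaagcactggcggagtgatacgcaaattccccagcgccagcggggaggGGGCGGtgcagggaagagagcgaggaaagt
Col4a6, chrX:141474077-141474326, minus strand: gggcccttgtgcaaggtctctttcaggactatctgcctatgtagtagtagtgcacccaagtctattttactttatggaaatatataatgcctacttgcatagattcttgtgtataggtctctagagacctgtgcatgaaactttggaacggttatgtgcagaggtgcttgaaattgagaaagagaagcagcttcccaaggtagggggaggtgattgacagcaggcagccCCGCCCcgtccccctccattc
The *Col1a2* window holds 1 CCAAT and 2 GC boxes, that of *Col8a1* 4 GC boxes, that of *Col4a5* 1 of each, and that of *Col4a6* 1 GC box. Among the 15 collagens that rose and have a window, 10 hold a GC box and 6 a CCAAT, against 32.7% and 33.8% of all 32851 windows of this length. These boxes are not particular to the collagens that rose. Of tested collagens that did not rise, *Col4a5*, *Col7a1* and *Col18a1* hold both, while *Col13a1* and *Col19a1* hold neither. TATAAA was found in 1 of the 15 (12.4% of all), TGANTCA in 1 (6.75% of all) and CANNTG, the E-box, in 7 (66.2% of all). The E-box is not in capitals, and in *Col8a1* 1 E-box overlaps 1 GC box. These are matches of letters and not sites at which binding was measured.

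Genes whose products fold and trim collagen were partly higher. Of 30 genes listed for synthesis and processing, 26 were tested, 12 rose (against 9.88% of all genes tested), 0 fell by more than 2-fold in limma or in the methods' t-test, and 14 did not pass both limits. *Plod2* and *Pcolce2* are among the 12, although they were above background on the Ctsk-Cre;Ano1fl/fl arrays alone and had to be higher. At an unadjusted p under 0.05 there was 1 gene lower at any fold, *Plod1*, at -0.44. *Serpinh1*, the collagen chaperone HSP47, read 7.09, 6.30 and 5.82 on the Ano1fl/fl arrays against 11.87, 11.82 and 11.31 on the Ctsk-Cre;Ano1fl/fl arrays, with no overlap, and was 38.4-fold higher (SE 0.34 on the log2 scale, limma adjusted p = 9.36e-05). *Fkbp10*, another chaperone of procollagen, rose by 5.12 on the log2 scale (SE 0.21). The proteases that cut the N-terminal propeptide, *Adamts2* and *Adamts14*, rose by 4.96 (SE 0.18) and 4.63 (SE 0.16), and *Pcolce*, which helps to cut the C-terminal one, by 4.84 (SE 0.28). Enzyme families were divided. Of the prolyl 4-hydroxylase chains, which make the hydroxyproline that stabilizes the helix, *P4ha2* rose by 2.34 (SE 0.23), whereas *P4ha1* and *P4hb* differed by 0.26 and 0.35 and did not pass, and *P4ha3* was not tested. Of the lysyl hydroxylases, *Plod2* was at least 5.11-fold higher and *Plod3* differed by 0.13. Of the prolyl 3-hydroxylase family, *P3h4* rose by 4.22 (SE 0.28) and *P3h2*, above background on 1 of 3 Ano1fl/fl arrays, had a fitted rise of 2.58, while *P3h1* and *P3h3* differed by -0.11 and 0.37.

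Of the 10 genes listed for cross-linking and fibril assembly, all were tested and 6 rose by limma, against 9.88% of all genes tested, *Lum* through a filter passed in that group alone. None was lower, at an unadjusted p under 0.05 either. *Lox* and *Loxl1* encode lysyl oxidases, which start the cross-links, and rose by 3.07 (SE 0.12, limma adjusted p = 1.87e-05) and 5.26 (SE 0.27, adjusted p = 4.38e-05). Of the fibril-binding proteoglycans, *Lum* was below background on every Ano1fl/fl array and was at least 22.7-fold higher, and *Dcn* and *Bgn* rose by 2.40 and 2.28. *Loxl4*, above background on 1 of 3 Ano1fl/fl arrays, differed by 2.25 with an SE of 0.96 and did not pass (adjusted p = 0.094).

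Genes for the breakdown and uptake of collagen showed 7 rises and 1 fall among 13 tested, where 9.88% of all genes tested rose and 7.19% fell. The filter fixed the direction of *Mmp2* and *Mrc2*, which no Ano1fl/fl array showed above background. *Ctsk*, the cathepsin that cleaves the collagen triple helix in bone resorption and whose gene drives Cre here, read 14.09, 13.79 and 13.78 on the Ano1fl/fl arrays against 16.98, 17.18 and 17.03 on the Ctsk-Cre;Ano1fl/fl arrays, 9.01-fold higher with no overlap (SE 0.11, limma adjusted p = 1.53e-05). *Mmp9* and *Mmp2*, the gelatinases, were 20.5-fold and at least 25-fold higher. The rises include *Timp1* and *Timp3*, inhibitors of breakdown, at 21.9-fold and 8.06-fold. *Mmp13* and *Fap* differed by -0.21 and 0.11 on the log2 scale and did not pass (limma adjusted p = 0.549 and 0.625). *Mmp8* passed the adjusted p with a rise of 0.76, under 2-fold. *Mrc2*, which takes up collagen in fibroblasts, was at least 2.32-fold higher, while *Mrc1*, the mannose receptor of macrophages, fell by 1.36 on the log2 scale (SE 0.08, adjusted p = 6.07e-05).

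Collagen receptors moved both ways, with 5 of 11 higher and 2 lower by more than 2-fold (9.88% and 7.19% of all genes tested). Another 3, *Itga10*, *Lair1* and *Gp6*, passed the adjusted p while lower by less, at -0.85, -0.41 and -0.62. Lower at any fold, 5 of the 11 passed it, and so did 5987 of the 20645 genes tested. *Oscar*, an osteoclast receptor that binds collagen, rose by 6.48 (SE 0.17, limma adjusted p = 6.83e-06). *Ddr1*, a tyrosine kinase activated by collagen, rose by 1.96 (SE 0.25). Its relative *Ddr2* read 4.31, 1.71 and 3.39 on the Ano1fl/fl arrays, only the first of which was above background, and 8.71, 8.82 and 8.15 on the others (adjusted p = 9.03e-04), so that its fold is not well measured. Of the collagen-binding integrin chains, *Itga11* and *Itga2* were at least 30.6-fold and 2.35-fold higher, entering the test through the Ctsk-Cre;Ano1fl/fl arrays alone, and *Itga1* fell by 1.52 (SE 0.20, adjusted p = 0.00134). *Adgrg1*, which binds type III collagen, fell by 1.17 (SE 0.08). *Itgb1*, the beta chain that all collagen-binding integrins share, was higher by 0.31 and passed the adjusted p (0.0142) at under 2-fold. Among 20 listed regulators of collagen transcription, all tested, 4 rose by more than 2-fold (9.88% of all genes tested did): *Ctgf* by 5.68, *Tgfb2*, above background on 2 of 3 Ano1fl/fl arrays, by 4.07, *Scx* by 1.37 and *Tgfbr1* by 1.20. None was lower by more than 2-fold in limma, at an unadjusted p under 0.05 either. A smaller fall passed the adjusted p for 5 of the 20, where 5987 of the 20645 genes tested passed it lower at any fold. These falls went from -0.30 for *Sp1* to -0.52 for *Rfx1*, with *Nfya*, *Fli1* and *Runx2* between them. *Cebpb* and *Tgfbr2* passed the adjusted p with smaller rises of 0.55 and 0.86.

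**Figure D5:**
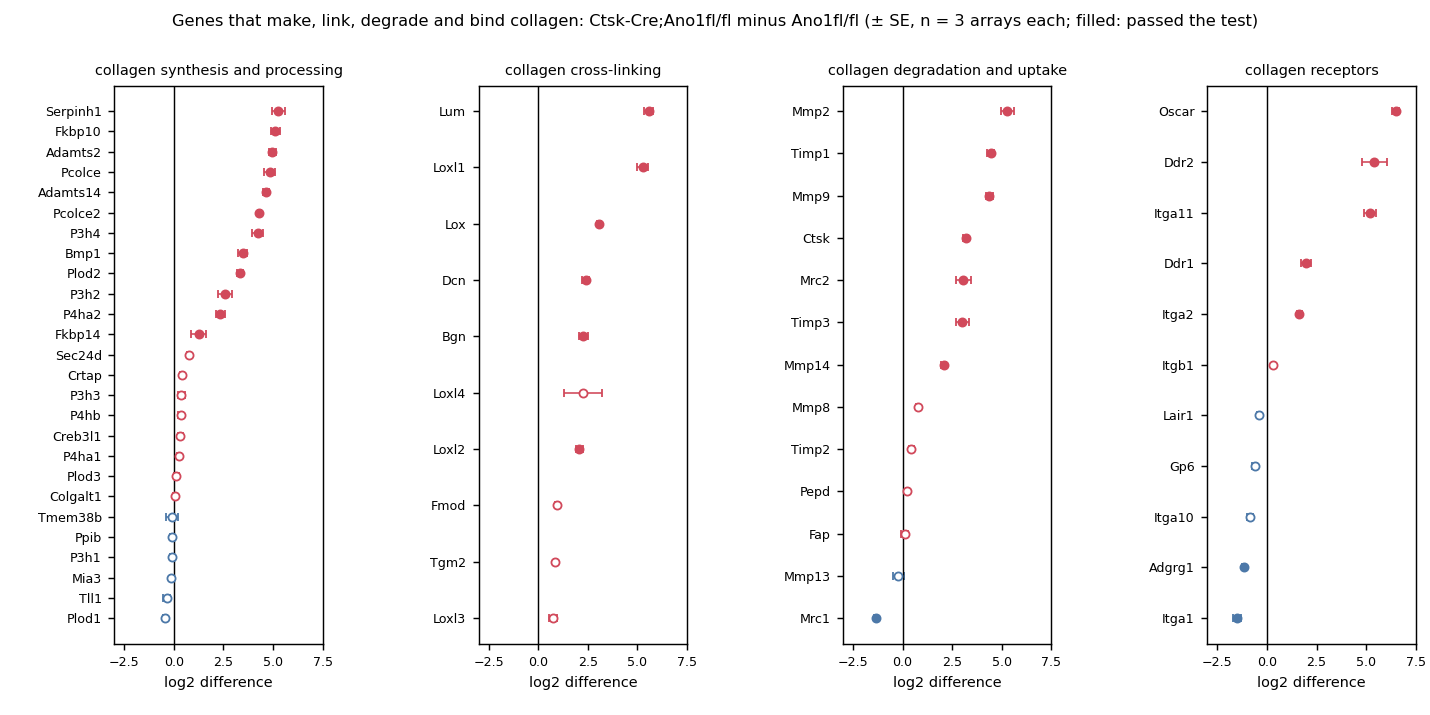
Log2 difference (± SE of the limma fit, 3 arrays per group) of every tested gene in the lists for collagen synthesis and processing, cross-linking, degradation and uptake, and receptors. Filled points passed both limits: 12 of 26, 6 of 10, 8 of 13 and 7 of 11, with *Mrc1*, *Adgrg1* and *Itga1* the filled points left of 0.

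Markers of other cells differed beside the collagens. Of 20 fibroblast and marrow stromal markers, 18 were tested and 13 rose, against 9.88% of all genes tested. Of the 13, *Pdgfra*, *Lum* and *Mfap5* had to be higher, being above background in the Ctsk-Cre;Ano1fl/fl group alone. The list shares *Dcn* and *Lum* with the cross-linking genes. *Fstl1* rose by 5.11, *Tagln* by 5.08 and *Sparc* by 4.82, and *Postn*, above background on 1 of 3 Ano1fl/fl arrays, read 4.39, 3.84 and 3.73 there against 11.06, 10.33 and 10.05. The other 5 did not pass both limits: *Lepr*, a marker of marrow stromal cells, was lower at -0.69 (limma adjusted p = 0.0117), *Kitl* and *Acta2* were higher by 0.83 and 0.54, and *Thy1* and *Vcam1* differed by 0.21 and 0.11. *Pdgfra*, *Lum*, *Mfap5*, *Twist1* and *Tcf21* were below background on all Ano1fl/fl arrays, and *Tcf21* on every array. The summed linear signal of the list was 26374 to 28422 on the Ano1fl/fl arrays and 81322 to 114799 on the Ctsk-Cre;Ano1fl/fl arrays, and without its brightest gene, *Acta2*, it was 6639 to 7088 and 53493 to 85059.

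Among osteoblast markers, 5 of 10 were tested and *Alpl* rose (4.49 ± 0.16 to 10.01 ± 0.31, SD, n = 3), while *Sp7*, *Runx2* and *Spp1* differed by -0.08, -0.46 and -0.32, and *Ibsp*, *Dmp1* and *Phex* did not rise above background on any array. The summed signal was 104519 to 140258 on the Ano1fl/fl arrays and 92740 to 101158 on the others, but *Spp1* alone made up 98.4% to 99.8% of it over the arrays, and without *Spp1* it was 261 to 315 and 1079 to 1502. Of 9 smooth muscle and pericyte markers 7 were tested and 3 rose (*Tagln*, *Cnn1* and *Notch3*), against 9.88% of all genes tested, *Cnn1* being above background on the Ctsk-Cre;Ano1fl/fl arrays alone. *Acta2* and *Mcam* were higher by less than 2-fold, *Myh11*, the myosin of smooth muscle, and *Cspg4* differed by -0.39 and 0.32 and did not pass, and *Rgs5* and *Des* were below background on every array. The summed signal was 59876 to 64656 against 88070 to 105712, and 20696 to 22263 against 34525 to 39511 without *Mcam*.

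Of 10 endothelial markers 8 were tested, and *Kdr* and *Erg* fell by more than 2-fold (7.19% of all genes tested did), *Erg* being above background on 1 of 3 Ctsk-Cre;Ano1fl/fl arrays. *Pecam1* was higher by 0.91 on the log2 scale (limma adjusted p = 0.00637). *Sox17* was below background on every Ctsk-Cre;Ano1fl/fl array and was tested through the Ano1fl/fl group alone, so it had to be lower. Its fall was at least 1.29-fold (limma adjusted p = 0.0259). *Cdh5*, *Esam*, *Emcn* and *Plvap* did not pass, and *Tek* and *Tie1* were below background throughout. The sum was 3912 to 4996 against 1924 to 2174, and 379 to 426 against 422 to 488 without *Kdr*. All 10 macrophage and monocyte markers were above background, and 4 fell, against 7.19% of all genes tested: *Cx3cr1* by 4.62, *Ccr2* by 3.36, *Ly6c2* by 1.42 and *Mrc1*. *Fcgr1* was lower by less than 2-fold, *Adgre1* was 1.74-fold higher (adjusted p = 6.35e-04), and *Csf1r*, *Cd68*, *Itgam* and *Cd14* differed by -0.04, 0.20, 0.10 and -0.13 and did not pass. Their sum was 522854 to 535658 against 443092 to 483663. The part of these cell types in the collagen values was not tested.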

How the data were processed

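The 6 arrays were Agilent one-colour arrays for mouse. The authors deposited scanner files holding intensities, read with Agilent Feature Extraction 10.7.1.1 per the submitters' processing notes: a processed signal, background-corrected by the software, plus spot means and medians. The intensities in the deposited series matrix equalled the spot medians (largest difference 0). No counts exist, so precision is limited by the number of arrays.

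Here the processed signal was put on the log2 scale, quantile normalized as the methods name, and averaged over spots of a probe. Outlier spots (143 to 252 per array) were set missing, which removed 14 probes. The brightest probe stood for a gene name. A gene was tested where at least 0.5 of its spots were well above background on all 3 arrays of 1 group. The groups were compared with limma 3.58.1 in R 4.3.3, with Benjamini-Hochberg adjustment over 20645 genes, and called at an adjusted p under 0.05 and more than 2-fold. On simulated data the fit was checked. Folds below background used each array's lowest signal well above background. Reading used Python 3.11.15 with pandas 2.3.3 and, in R, the data.table package (version 1.17.8), and plotting used matplotlib 3.10.9. Probe positions are mm9 as in the files; no mm9 annotation was used, so exon and UTR are not given.

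Named genes are the called collagens, chains of the same type, and of each list the called genes, up to the 5 largest rises and 3 largest falls, with further genes of the lists chosen after their values were seen. The collagens, classes and lists were chosen with earlier results of these data known. Alternatives were 75th percentile scaling, normexp (offset 50), the mean of probes, the series matrix, no filter or all 6 arrays, folds of 1.5 and 3, limma with trend and robust options, the methods' t-test, a replicate block, and each array left out.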

Additional observations from a re-analysis of the deposited data

How the results depend on the processing

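Of the 278 values of the 19 higher collagens under alternatives, 277 kept their direction and their side of the adjusted p of 0.05, the exception being *Col23a1* with normexp (log2 0.21, adjusted p = 0.0619). *Col4a5* kept both in all 15, from -3.44 to -1.90. The count of higher collagens was 12 of 22 tested where all 6 arrays had to be above background, since fewer genes were tested, 16 with normexp and with the series matrix, and 18 with folds set to lower limits, an alternative added after the data were seen. Without a filter 2 were lower. The median log2 difference was 1.07 with normexp, 1.73 with the series matrix, 1.78 with the mean of all probes, 2.18 with lower limits, 3.26 with all 6 arrays above background, and 0.63 with no filter. With 1 array left out it was 3.27 to 3.66 and the count 17 to 19. The cause of these shifts was not tested.

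Chain pair differences moved by over 1.5 times: *Col5a1* against *Col5a2* from 0.44 to 1.58 with the mean of all probes, 1.92 with normexp and 1.91 with the series matrix, *Col6a1* against *Col6a2* from 0.21 to 1.17 with normexp, 0.83 with the series matrix and 0.026 to 0.33 with 1 array left out, *Col1a1* against *Col1a2* from 0.74 to 0.38 with normexp, and *Col4a1* against *Col4a5* from 6.74 to 4.27 with normexp. The *Col5a1* to *Col5a2* difference was 0.20 to 0.61 with 1 array left out. *Col6a1* against *Col6a3* changed sign to 1.76 with the mean of all probes, 0.51 with normexp and 0.26 with the series matrix, and was -0.28 to 0.022 with 1 array left out. Genes not called also changed sign: *Col11a2* with normexp (-0.081), *Col13a1*, *Col22a1* and *Col26a1* with the mean of all probes (0.25, -0.31 and 0.46), *Col18a1* with 1 array left out (-0.49 to 0.045) and *Col7a1* likewise (-0.28 to 0.040). *Col17a1* lost its adjusted p under 0.05 in 10 of 15 alternatives.

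Same-numbered arrays of the groups were not shown to be paired: their deviations correlated at 0.00443, -0.0617 and -0.0808. With a replicate block the collagen counts were 19 higher and 1 lower, and 12 and 0 for synthesis and processing, as without it, and *Col11a2* passed (adjusted p = 0.0207).

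The number of arrays and the background limit what can be seen. The 15 untested collagens have no fold, 6 have only a lower limit, and *Ano1* was below background.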
